A study of Mus musculus with 14 samples.

Results

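The Zfp genes of the mouse are the zinc finger protein genes that carry a number instead of a name of their own, and 283 of them were abundant enough to be followed here through a labelling and chase experiment. They were all gene symbols made of Zfp and a number, other than Zfp36, which encodes an RNA-binding protein with a different kind of finger, and Zfp42, itself a marker of embryonic stem cells. A symbol was kept when 6 or more of the 14 libraries held 50 or more total counts for it. Among 368 such symbols, 283 passed, and 15 of the 368 were at 0 in every library. The other genes set beside them were the 11292 remaining genes among the 11575 that passed the same rule, out of 36335 named entries. Just inside the threshold, by the sixth highest total count, lay Zfp94 with 52 counts and Zfp595 and Zfp85 with 55 each. Just outside lay Zfp583 with 48 and Zfp114 and Zfp28 with 46 each.

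The cells were E14 mouse embryonic stem cells grown on gelatin in serum and LIF, either wild type (WT) or carrying a knockout of Mettl3 (Mettl3-KO). Mettl3 is the catalytic subunit of the enzyme that adds m6A to mRNA, and m6A itself was not measured in these libraries. Both genotypes had been kept for 2 weeks in 200 nM INK128, an mTOR inhibitor that holds these cells in a paused state, so that every comparison is between paused cells and none is with cycling cells. S4U, a uridine analogue that new RNA takes up, was supplied at 100 µM during 12 h and then removed, and cells were harvested 0, 1, 3 or 8 h later. WT had 1 library for each of the 0 and 3 h times and 2 for each of the 1 and 8 h times, and Mettl3-KO had 2 throughout. All titles and the cell line field name E14, but the field for the source of the cells reads E15 and E16 for the 2 Mettl3-KO libraries of 8 h and E14 for the others, so counts without these 2 are given beside the main ones. The sources used here do not say whether the knockout was 1 clone, nor whether libraries of a group were grown apart, so the p-values describe the spread between these libraries, which may be technical.

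Most mouse Zfp genes encode proteins with arrays of C2H2 fingers, each finger reading a short stretch of DNA. The largest subfamily adds a KRAB domain, which recruits Trim28 and, through it, the H3K9 methyltransferase Setdb1, HP1 proteins and histone deacetylases. In embryonic stem cells KRAB zinc finger proteins keep retroelements silent and protect DNA methylation at imprinted regions. The genes arose by repeated local duplication and lie in clusters, and mRNAs of zinc finger proteins are known as a class with rapid turnover.

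Total counts ran from 6108102 to 26654217 in 12 libraries, 5 of WT and 7 of Mettl3-KO, on which the results rest. The other 2, the second WT library at 1 h with 49154 counts and the second Mettl3-KO library at 3 h with 602297, also held less label than the other library of their group, 8.43% against 30.8% and 6.90% against 18.5% of counts. Counts that include them are given beside those that do not. Mettl3 itself had 151 to 783 counts in the 5 WT libraries and 14 to 55 in the 7 knockout libraries, or 23.1 to 74.7 and 1.16 to 2.38 CPM (counts scaled to a common library size). Summed levels of 10 embryonic stem cell markers, 9 of which passed the count rule, were 4887 to 6387 CPM in WT and 3773 to 5865 in Mettl3-KO. Summed neural markers (5 of 8 passed) were 81.7 to 107 CPM in WT and 497 to 761 in Mettl3-KO. That sum was carried by Stmn2, at 16.5 CPM on average in WT and 478 in Mettl3-KO, and Tubb3, at 13.8 and 122, both genes of neurons, while Sox1, a marker of neural progenitors, went from 52.8 to 7.86. Summed endoderm markers (4 of 12 passed, Afp at 0) were 221 to 261 and 85.9 to 147 CPM. That sum was mostly Lama1, at 94.3 CPM on average in WT and 12.9 in Mettl3-KO, and Lamb1, at 96.6 and 78.3. Foxa2 (1.08 and 3.68) and Dab2 (7.89 and 8.12) were not lower, while the other listed genes above 0 were. In total RNA 1 of the 4 that passed was lower and 0 higher (edgeR, adjusted p under 0.05), against 21.7% and 22.8% of all genes. Fibroblast markers (4 of 10 passed) overlapped at 196 to 238 and 165 to 253 CPM. That sum was nearly all Vim, at 195 CPM on average in WT and 201 in Mettl3-KO. The next highest in WT was Col1a1, at 9.09 and 2.16 CPM. Of the 4 fibroblast markers that passed, 2 were lower and 0 higher in total RNA (edgeR, adjusted p under 0.05), against the same background. With all 14 libraries 1 was lower. The genotypes thus differed in markers of other cell types alongside every change given below, and the part of these in the Zfp changes was not tested. In bulk RNA, fewer cells of a type and less RNA per cell cannot be told apart.

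The genes lie in runs along the chromosomes, and some neighbours have near-identical promoters. RefSeq (GRCm38.p6) gave positions for 282 of the 283 genes, all of them protein coding, and 197 lay in 41 runs of 2 or more members no further than 1 Mb apart. Chromosome 7 alone held 67, chromosome 17 held 34 and chromosome 13 held 23. Promoter windows of 300 bases, from 250 before to 50 after an annotated start, were found for 234 members. Only the first window listed for a symbol was used. Among 406 pairs of members of the same run, over the 10 largest runs, 6 pairs were identical at 80% or more of aligned positions. A pair from chromosome 17 whose mRNAs both fell in Mettl3-KO is printed here as RefSeq GRCm38.p6 has it, 5′ to 3′ on the gene's strand. It lies at chr17:21962415-21962714 (Zfp942, minus strand) and chr17:22361351-22361650 (Zfp944, minus strand), and capitals mark bases that have no identical partner in the other window.
Zfp942: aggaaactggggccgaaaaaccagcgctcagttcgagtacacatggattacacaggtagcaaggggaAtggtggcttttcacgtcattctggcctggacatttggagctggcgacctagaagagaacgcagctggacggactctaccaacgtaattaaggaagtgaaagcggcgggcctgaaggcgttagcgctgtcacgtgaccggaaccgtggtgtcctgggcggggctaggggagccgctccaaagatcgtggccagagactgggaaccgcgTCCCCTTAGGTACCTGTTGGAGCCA
Zfp944: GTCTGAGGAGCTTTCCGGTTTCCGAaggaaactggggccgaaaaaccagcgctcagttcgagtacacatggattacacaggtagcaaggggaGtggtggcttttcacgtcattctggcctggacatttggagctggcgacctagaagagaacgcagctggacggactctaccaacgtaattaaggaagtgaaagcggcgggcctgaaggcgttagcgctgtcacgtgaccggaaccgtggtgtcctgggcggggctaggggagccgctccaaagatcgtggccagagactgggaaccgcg
The windows share 274 identical bases and are offset at their ends, so that 26 bases of each are in capitals, nearly all of them at those ends. The next pair, from chromosome 4, is shown because its members went opposite ways: Zfp981 at chr4:146514670-146514969 (plus strand) was higher in Mettl3-KO and Zfp984 at chr4:147809739-147810038 (minus strand) lower.
Zfp981: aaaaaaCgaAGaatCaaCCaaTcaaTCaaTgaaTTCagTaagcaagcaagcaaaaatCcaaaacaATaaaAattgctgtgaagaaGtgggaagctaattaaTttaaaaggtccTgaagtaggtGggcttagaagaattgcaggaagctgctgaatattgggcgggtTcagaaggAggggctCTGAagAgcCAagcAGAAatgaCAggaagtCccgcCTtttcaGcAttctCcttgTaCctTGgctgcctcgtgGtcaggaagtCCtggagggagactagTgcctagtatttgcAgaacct
Zfp984: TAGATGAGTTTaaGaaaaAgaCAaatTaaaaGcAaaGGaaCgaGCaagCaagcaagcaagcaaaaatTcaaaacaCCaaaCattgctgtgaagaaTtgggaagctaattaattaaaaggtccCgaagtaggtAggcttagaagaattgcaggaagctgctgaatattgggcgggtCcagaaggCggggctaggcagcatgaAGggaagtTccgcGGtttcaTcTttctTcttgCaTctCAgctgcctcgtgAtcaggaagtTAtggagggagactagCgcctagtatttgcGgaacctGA
Here 248 bases were identical over 317 aligned positions (78.2%), and 52 bases of each are in capitals. Both windows lie inside the gene positions used for the runs, 146502000 to 146539395 for Zfp981 and 147753974 to 147812229 for Zfp984. They are thus not at the outermost starts of these genes. This pair falls below the 80% of the 6 closest pairs. In each of those 6 the total RNA changes of both members had the same sign, as they had in 200 of all 406 pairs (49.3%), but several of these changes were not called, and Zfp979, Zfp980 and Zfp985 alone make up 3 of the 6. Both printed pairs were chosen after their values were seen. Promoter windows are not the 3′ ends that were counted, and whether members share reads there was not tested, so values of single members of a cluster carry that uncertainty.

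The promoter windows of the family differed in letters from promoters at large, a description with no bearing on which factor binds. The 234 windows belong to genes that passed the count rule, while the 27025 were taken whatever the level of the gene. Whether the differences belong to the family or to expressed genes in general was not tested. CCAAT, on either strand, was in 51.7% of the 234 windows and in 37.9% of all 27025 windows. The GC box GGGCGG was in 47.4% against 35.9%, and ATGGCGGC, a core of the YY1 motif, in 6.41% against 2.38%. TATAAA was less frequent, at 6.84% against 14.2%. CACGTG was in 8.12% against 7.24%, TGACGTCA in 3.42% against 1.88% and AGGCCTAG in 0.855% against 0.981%. Each was searched on both strands, and none of the 7 contains another. The median window held 14 CpG dinucleotides in the family and 7 over all promoters, with a median GC content of 54.3% against 52.7%.

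The clearest feature of the family was how quickly label left its mRNAs between 1 and 3 h. The labelled share is the conversion count divided by the total count of a gene in a library, where a conversion is a T read as C after chemical treatment of S4U. At 0 h the median share of the Zfp genes in WT was 44.2%, next to 45.3% for other genes. At 1 h it was 31.1% against 34.1%, and at 3 h 12.2% against 18.99%. At 8 h the WT libraries gave 1.37% and 0.518%, a mean of 0.942% ± 0.599 (SD, n = 2), against 1.80% ± 0.594 for other genes. The medians of the family were thus near those of other genes when S4U was removed and stood below them 3 h later, by a difference of -6.80 percentage points.

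Mettl3-KO started with less label and showed a like difference at 3 h. Its median Zfp share was 29.6% ± 0.223 (SD, n = 2) at 0 h, against 30.5% ± 0.477 for other genes, and 29.5% ± 1.61 at 1 h against 29.9% ± 1.27. At 3 h it was 13.04% against 18.6%, and at 8 h 1.42% ± 0.146 against 2.42% ± 0.0688. The family minus other genes was -0.911, -0.396, -5.57 and -0.999 points at these times. In the shallow Mettl3-KO library of 3 h the medians were 1.14% and 5.92%, and in the shallow WT library of 1 h both were 0. Each 3 h value of the deeper libraries is 1 library, so the spread of that difference between replicates is not known. Against other genes restricted to the members' range of mean counts, 10774 genes, the 3 h difference was -6.65 points in WT and -5.54 in Mettl3-KO. When counts were pooled over genes before dividing, so that abundant genes weigh most, the family was instead above other genes at 0 and 1 h, by 4.61 and 0.379 points in WT and 2.93 and 2.60 in Mettl3-KO, while at 3 h the differences were -5.41 and -4.09.

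**Figure D1:**
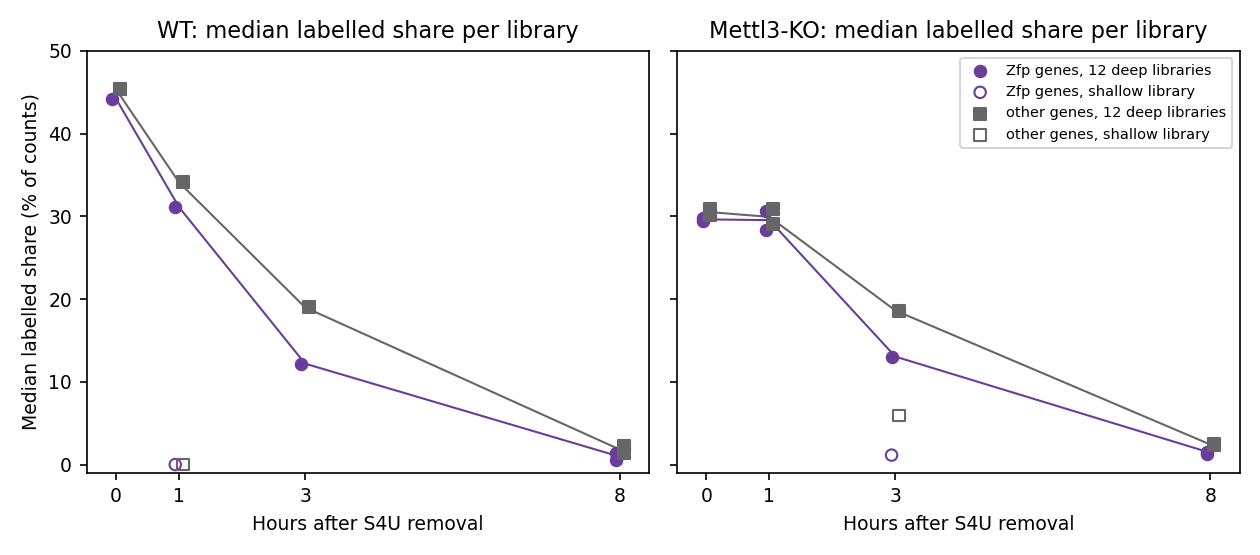
Median labelled share (percent of counts, y axis) of the 283 Zfp genes and of other genes in each library against hours after S4U removal (x axis), WT left and Mettl3-KO right. Filled symbols are the 12 deep libraries, open symbols the 2 shallow ones, lines join group means; the family and other genes start close together and are furthest apart at 3 h, 12.2% against 18.99% in WT and 13.04% against 18.6% in Mettl3-KO.

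Gene by gene, the share at 3 h was divided by the share at 0 h of the same genotype, with the counts of libraries of a time added up. The median Zfp gene in WT kept 28.9% of its label at 3 h, with quartiles of 15.9% and 39.6%, and the median other gene 43.0% (30.4% and 57.5%). Of the 283 members 228, or 80.6%, lay below the median of other genes. In Mettl3-KO the family kept 44.9% (30.7% and 62.0%) and other genes 63.0% (47.7% and 77.9%), with 218 members (77.0%) below. Another group of zinc finger genes, the 34 Zbtb genes that passed, whose fingers are joined to a BTB domain, kept 31.5% in WT and 46.5% in Mettl3-KO. The 16 Zscan and Zkscan genes, whose fingers come with a SCAN domain, kept 41.0% and 60.6%. The low label left at 3 h was therefore also seen in Zbtb genes, and at that time the Zscan and Zkscan medians lay near those of other genes. Other times ordered the groups differently. In WT the Zscan and Zkscan genes kept 59.5% at 1 h and 2.19% at 8 h. There the Zbtb genes kept 68.5% and 5.12%, the Zfp genes 69.6% and 3.50%, and other genes 77.1% and 4.94%.

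**Figure D2:**
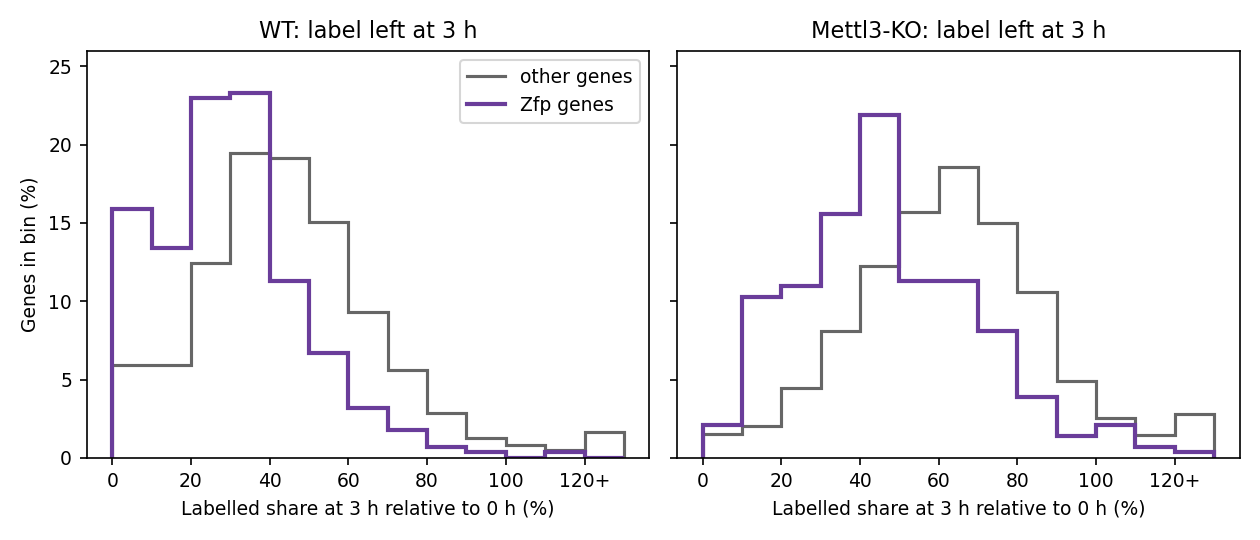
Share of genes (percent, y axis) by the labelled share at 3 h relative to 0 h (percent, x axis, bins of 10, the last bin holds all values of 120 or more), WT left and Mettl3-KO right. The outline of the Zfp genes lies to the left of that of other genes in both genotypes, with medians of 28.9% against 43.0% and 44.9% against 63.0%.

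Over the first hour the median Zfp gene in WT kept 69.6% of its 0 h share and the median other gene 77.1%, with 165 of 282 members (58.5%) below the latter. Both times rest on 1 deep WT library each. In Mettl3-KO the medians at 1 h were 99.0% and 98.0%, with 136 of 283 members below. At 8 h the family was at 3.504% in WT and 5.33% in Mettl3-KO, and other genes at 4.94% and 7.98%.

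A straight line through all 4 times gave a smaller contrast than the 3 h values. Conversion counts of 281 members and 11492 genes in all were fitted with edgeR's quasi-likelihood test, scaled by each library's total counts, and the slope is the log2 change of labelled RNA per hour. The median slope of the family was -0.60 in WT, against -0.56 for other genes, and -0.58 in Mettl3-KO, against -0.47. The Zbtb genes had medians of -0.51 in WT and -0.56 in Mettl3-KO, and the Zscan and Zkscan genes -0.64 and -0.59. The difference between family and other genes was -0.046 (jackknife SE over libraries 0.038) in WT and -0.10 (SE 0.018) in Mettl3-KO. Where a time had 1 deep library, as WT had at 0, 1 and 3 h, leaving it out removes that time. These SE thus also hold the weight of single times and are not a spread between replicates alone. On the 0, 1 and 3 h libraries alone it was -0.21 in both genotypes. Expressed as the time in which the fitted labelled RNA falls by 50%, the median Zfp mRNA had a half-life of 1.65 h in WT, against 1.79 h for other genes, and in Mettl3-KO 1.74 h, against 2.104 h. In WT the quartiles of the family were 1.29 and 2.00 h, against 1.47 and 2.24 h for other genes. The range from the 10th to the 90th percentile was 1.00 to 2.40 h, against 1.21 to 3.09 h. A fall in label was called at an adjusted p under 0.05 (edgeR, Benjamini-Hochberg) for 271 of the 281 members in WT, 96.4%, against a background of 94.1% of all genes tested, and for 277 in Mettl3-KO, 98.6% against 92.3%.

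The authors' deposited table of half-lives, whose unit it does not state, holds 204 Zfp genes and 6708 others. In the authors' deposited table the median was 1.56 for the Zfp genes and 1.70 for the others in WT, and 2.03 and 2.55 in Mettl3-KO. The authors' deposited table has a longer value in Mettl3-KO than in WT for 159 of the 204 Zfp genes (77.9%) and for 84.2% of the others.

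Among well covered members, those with 200 or more counts in each deep WT library, the shortest WT half-lives were those of Zfp574 at 1.13 h, Zfp180 at 1.16 h, Zfp81 at 1.19 h, Zfp644 at 1.196 h and Zfp267 at 1.27 h. In WT the labelled share of Zfp574 went from 43.3% at 0 h and 46.8% an hour later to 11.9% at 3 h, and the 8 h libraries gave 0.530% and 0%. Its fall thus came after the first hour and was nearly complete at 8 h. The longest were Zfp326 at 3.27 h, Zfp869 at 3.02 h, Zfp638 at 2.68 h, Zfp655 at 2.29 h and Zfp839 at 2.16 h. Zfp326 encodes a subunit of a complex that couples splicing to transcript elongation, and Zfp638 a nuclear protein that helps silence retroviral DNA. Zfp869 had WT shares of 47.8%, 40.3% and 18.6% at the first 3 times and of 8.98% and 5.01% in the 8 h libraries, where Mettl3-KO still had 10.8% and 13.2%. The WT half-life of 3.02 h compared with 5.17 h in Mettl3-KO, a difference in slope of 0.14 (SE 0.092) that was not called (adjusted p = 0.414, edgeR).

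Few members lost label at a rate that differed between the genotypes. Of the 281, 6 were slower in Mettl3-KO (2.14%, against a background of 5.26% of all genes) and 0 faster (background 0.331%), with 37 members (13.2%) and 2314 of the 11492 genes (20.1%) at an unadjusted p under 0.05. The median difference in slope was 0.061 per hour for the family and 0.093 for all genes, and 167 of the 281 lay above 0. On simulated data this fit called 8% of genes given a slope difference of 0.25 and 64% of those given 0.5. Many differences would thus be missed under those settings. There 100 genes had each size, all slower, and the rest of the 11492 had no difference, so the shares called may differ in the real data. The median member also had fewer total counts than the median other gene, 322 against 548 in the WT library of 0 h. The part of this in the low share of calls was not tested. The 6 were Zfp981, Zfp574, Zfp111, Zfp106, Zfp959 and Zfp580, with adjusted p between 0.0165 and 0.0479. DESeq2 called 7 members slower (background 9.75%) and 4 faster (background 0.783%). Without the 2 Mettl3-KO libraries of 8 h 0 members were called in either direction, no member was called slower without the WT library of 1 h, and with the shallow libraries put back 4 were (1.42%, background 2.65%).

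Single calls depended on the fit. Of 20 alternatives the call was lost in 14 for Zfp580, in 13 each for Zfp106 and Zfp959, in 10 for Zfp111 and in 5 each for Zfp574 and Zfp981. Zfp106 encodes an RNA-binding protein with a role in motor neurons. Its labelled shares in WT, by time, were 52.9%, 48.3%, 36.6% and, in the 8 h libraries, 1.90% and 2.43%. In Mettl3-KO it was 37.8% in both 0 h libraries, 42.5% and 38.7% an hour later, 30.02% at 3 h and 5.31% and 6.37% at 8 h. The genotypes crossed: Mettl3-KO was lower at 0 h and higher at 8 h. The median of other genes crossed too. Its WT values were 45.3% (0 h) and 1.80% (8 h), and the knockout values were 30.5% and 2.42%. The crossing is thus not particular to Zfp106. For Zfp106 WT had a half-life of 1.56 h and Mettl3-KO of 3.29 h. The slope difference was 0.34 (SE 0.10, edgeR adjusted p = 0.0424), and with all 14 libraries the adjusted p was 0.0803 (edgeR).

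Zfp574 had WT shares as given above and Mettl3-KO shares of 28.7% and 29.3% at 0 h, 28.9% and 25.9% an hour later, 11.8% at 3 h and 2.46% and 1.68% at 8 h. Its slope difference was 0.48 (SE 0.13), with half-lives of 1.13 and 2.45 h. Zfp580 had slopes that differed by 0.44 (SE 0.14) and Zfp111 by 0.68 (SE 0.21). In the 8 h WT libraries Zfp111, Zfp574, Zfp580, Zfp959 and Zfp981 had only 0 to 9 conversion counts, so these 5 rest on very few labelled molecules at the end of the chase. Zfp981 had 41 conversion counts in the WT library of 0 h and 0 in every other WT library, and its difference of 1.94 (SE 0.52) turned to -0.34 without that library.

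Total RNA of the family moved in both directions and no more often than that of other genes. Of 283 members 61 were higher in Mettl3-KO, 21.6% against a background of 22.8%, and 57 lower, 20.1% against 21.7% (edgeR's quasi-likelihood test, adjusted p under 0.05, over all 11575 genes, with time as a factor). The median log2 change was -0.02 for the family and 0.00 for all genes. A change of at least 1 on the log2 scale was reached by 25 of the higher and 25 of the lower genes (8.83% each way, where 10.8% and 10.4% of all genes were called with such a change). The CPM ranges of the genotypes did not overlap for 31 of the higher and 31 of the lower genes, where 13.2% and 11.8% of all genes had ranges apart in those directions. With the shallow libraries included, 32 members were higher (background 15.0%) and 27 lower (11.2%), and every one of these was also called without them. Without the 2 Mettl3-KO libraries of 8 h 36 were higher and 36 lower (12.7% each way, background 15.2% and 15.2%).

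**Figure D3:**
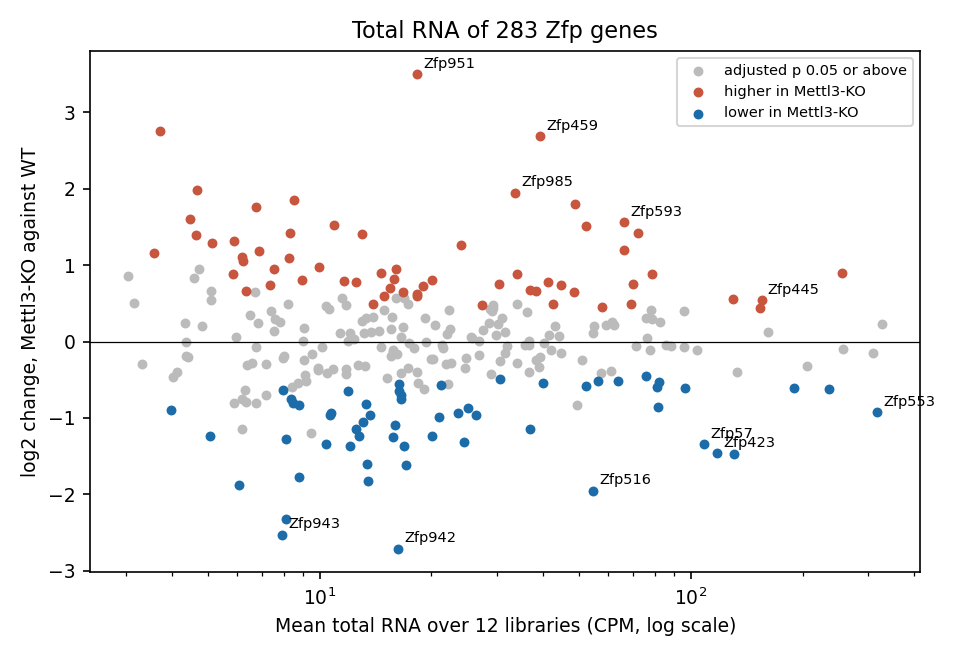
Log2 change of total RNA in Mettl3-KO against WT (y axis) for each of the 283 Zfp genes against its mean level over 12 libraries (CPM, log scale, x axis). Red and blue points are the 61 higher and 57 lower genes, grey points were not called; both directions occur at all levels, and the median of the family is -0.02.

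The member that fell with the smallest p was Zfp942, a gene of the chromosome 17 cluster. Its total RNA in WT was 36.1, 27.1 and 31.9 CPM at the first 3 times and 24.4 and 40.3 in the 8 h libraries. In the 7 Mettl3-KO libraries it was 4.06 to 6.66 CPM, with a median of 5.01, so every knockout library lay below every WT library. This was a log2 change of -2.71 (SE 0.21, edgeR adjusted p = 9.33e-08).

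Zfp516, a transcription factor known for activating thermogenic genes in brown fat, was at 77.9, 108, 99.3, 96.4 and 95.4 CPM in the WT libraries in order of time. In Mettl3-KO it was at 19.99 to 31.1, with a median of 26.4 CPM. These groups too were apart, with a log2 change of -1.95 (SE 0.16, edgeR adjusted p = 1.35e-07). Zfp423, a partner of Smad and Ebf factors that is needed for fat cell precursors, was at 158, 200.4, 138, 202 and 232 CPM in WT and at 56.4 to 96.5 (median 63.4) in Mettl3-KO. Its change was -1.46 (SE 0.16). Zfp704 fell by 1.48 on the log2 scale (SE 0.18) but was not called with the shallow libraries included (-0.91, edgeR adjusted p = 0.155). Zfp827, whose protein recruits the NuRD complex to telomeres, fell by 1.61 (SE 0.20) and likewise missed the threshold with them (adjusted p = 0.0643, edgeR). Zfp944 fell by 1.83 (SE 0.23), Zfp984 by 1.32 (SE 0.20) and Zfp346 by 1.37 (SE 0.21), each with ranges apart.

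On the other side Zfp951 had the highest fold of the 8 named, from 0.883, 2.87, 2.08, 2.95 and 5.18 CPM in the WT libraries to 21.9 to 39.5 (median 30.4) in Mettl3-KO. It was low in every WT library, and it changed by 3.496 on the log2 scale (SE 0.39, edgeR adjusted p = 5.68e-06). Zfp459, from the chromosome 13 cluster whose members include repressors of sex-dependent liver genes, was at 13.03, 4.07, 16.8, 6.54 and 8.75 CPM in WT and 52.7 to 69.3 (median 58.0) in Mettl3-KO, a change of 2.69 (SE 0.27). Zfp985 was at 12.97, 15.5, 8.43, 13.8 and 12.5 CPM in WT and 42.7 to 54.5 (median 49.95) in Mettl3-KO, a change of 1.95 (SE 0.18, edgeR adjusted p = 5.93e-07). All 3 had ranges that did not overlap. Zfp131, Zfp593, Zfp639 and Zfp473, the last a subunit of the machinery that cuts the ends of histone mRNAs, rose by 1.43 to 1.80 on the log2 scale with ranges apart. Zfp771 rose by 1.203 (SE 0.18) with ranges that overlapped.

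**Figure D4:**
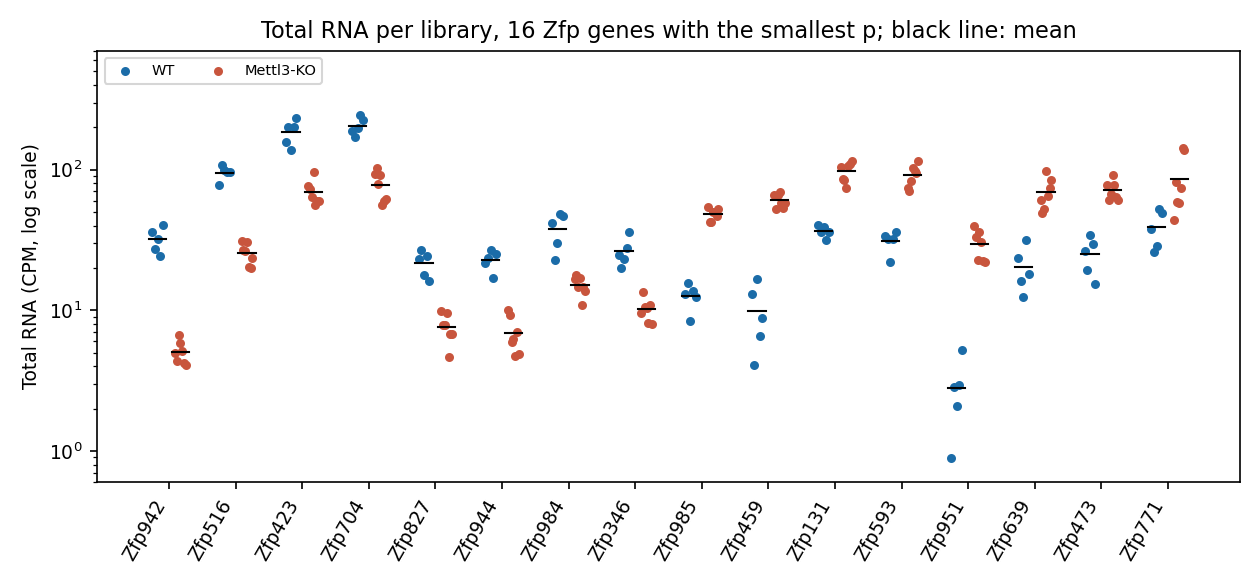
Total RNA (CPM, log scale, y axis) in each of the 5 WT and 7 Mettl3-KO deep libraries for the 8 Zfp genes that fell and the 8 that rose with the smallest p. Points are libraries and black lines group means; the genotypes do not overlap for 15 of the 16 genes, the exception being Zfp771.

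By role, the silencers of imprinted regions and retroelements went both ways. Of the 7 listed genes that passed the count rule 1 rose and 3 fell (background 22.8% and 21.7% of all genes), with a median log2 change of -0.15. The same 4 were called with all 14 libraries (background 15.0% and 11.2%). These lists are short, and whether their counts differ from the background was not tested. Zfp57, which binds methylated imprinting control regions and keeps them methylated, was at 77.3, 281 and 260.0 CPM at the first 3 times in WT and at 92.6 and 163 in the 8 h libraries. In Mettl3-KO it was at 27.9 to 91.3, with a median of 72.9 CPM. WT varied over 3-fold and its lowest library lay within the knockout range, and the change was -1.34 (SE 0.30, edgeR adjusted p = 0.00333). Zfp445, the other known guardian of imprints, was at 106, 114, 126, 124 and 141 CPM in WT and 146 to 248 (median 174) in Mettl3-KO. It rose by 0.54 (SE 0.17, edgeR adjusted p = 0.0147), and its ranges were apart. Zfp809, which silences murine leukaemia type retroviruses, fell by 1.23 (SE 0.20), from 30.7 ± 5.75 to 12.5 ± 3.72 CPM (SD, n = 5 and 7). Zfp932, a repressor of endogenous retroviruses, fell by 1.25 (SE 0.20), from 23.7 ± 2.84 to 10.1 ± 2.17 CPM. Zfp568, which represses a placental Igf2 transcript, was at 328 ± 33.3 CPM in WT and 295 ± 43.1 in Mettl3-KO and was not called (-0.15, SE 0.15, edgeR adjusted p = 0.433). Zfp708 (0.83, SE 0.47) and Zfp819 (0.14, SE 0.25) were not called either.

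Of 8 members tied to pluripotency 1 rose and 3 fell (background 22.8% and 21.7%), with a median of -0.21. With all 14 libraries 0 rose and 2 fell (background 15.0% and 11.2%). Zfp553 fell by 0.93 (SE 0.14), from 433 to 236 CPM on average, and Zfp706, which holds back exit from self-renewal, fell by 0.62 (SE 0.14). Zfp217, reported to bind Mettl3 and restrain m6A deposition in stem cells, fell by 0.59 (SE 0.16) but missed the threshold with the shallow libraries (adjusted p = 0.286, edgeR). Zfp296 rose by 0.76 (SE 0.15) and also missed it with them (adjusted p = 0.125, edgeR). Zfp281, which represses Nanog, was at 230 ± 58.0 CPM in WT and 188 ± 63.5 in Mettl3-KO and was not called. Zfp207, Zfp462 and Zfp143 had changes of -0.09, 0.22 and 0.32 that were not called.

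Among 13 regulators of transcription and chromatin 3 rose and 4 fell (background 22.8% and 21.7%), with a median of -0.11. With all 14 libraries 1 rose and 2 fell: Zfp410, Zfp516 and Zfp423 kept their calls, and Zfp532, Zfp219, Zfp687 and Zfp335 missed the threshold (edgeR adjusted p of 0.0836, 0.213, 0.111 and 0.0944). Besides Zfp516 and Zfp423, Zfp532 fell by 0.61 (SE 0.16) and Zfp219 by 0.45 (SE 0.14). Zfp532 and Zfp687 encode partners in the ZMYND8 complex, and Zfp687 went the other way, at 0.82 (SE 0.20). Zfp410, known for activating Chd4, rose by 0.80 (SE 0.21), while Chd4 itself was at 0.11 (SE 0.15) and not called. Zfp335 rose by 0.98 (SE 0.29).

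Of 9 factors of RNA and ribosome metabolism 2 rose and 2 fell (background 22.8% and 21.7%), with a median of 0.20. With all 14 libraries 1 rose (Zfp593) and 1 fell (Zfp346), where the background was 15.0% and 11.2%. Zfp593, a nucleolar protein of large ribosomal subunit assembly, was at 34.0, 32.3, 22.0, 32.0 and 36.3 CPM in WT and 70.6 to 116 (median 94.9) in Mettl3-KO, a change of 1.56 (SE 0.17, edgeR adjusted p = 2.91e-06). Zfp346, which binds double-stranded RNA, fell as given above. Zfp106 had a change of 0.49 (SE 0.19, edgeR adjusted p = 0.0432) that missed the threshold with all 14 libraries (adjusted p = 0.276) and in 12 alternatives altogether. Zfp326 fell by 0.86 (SE 0.27) and missed it with them too (adjusted p = 0.0968, edgeR) and in 6 alternatives altogether. Zfp622 (0.13, SE 0.15), another factor of the large subunit, and Zfp598 (0.20, SE 0.16), the ubiquitin ligase of collided ribosomes, were not called.

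The corepressor genes on which KRAB proteins act also changed unevenly. Of 26 measured genes 4 rose and 7 fell, where 22.8% and 21.7% of all genes did, with a median of -0.28. With all 14 libraries 4 rose and 4 fell, and Hdac2, Cbx5 and Atf7ip2, lower without them, missed the threshold (edgeR adjusted p of 0.186, 0.271 and 0.106). Setdb1 was at 22.2 to 51.7 CPM in the WT libraries and at 115 to 347 (median 266) in Mettl3-KO, a change of 2.56 (SE 0.27, edgeR adjusted p = 5.27e-06). Cbx1, an HP1 protein, rose by 1.201 (SE 0.16) and Atrx, the chromatin remodeller that works with Daxx, fell by 1.60 (SE 0.18). Trim28, the scaffold that KRAB domains bind, was at 1757 CPM in WT and 1445 in Mettl3-KO on average and was not called (-0.26, SE 0.20, edgeR adjusted p = 0.293).

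Of the 10 largest runs 9 held members called in both directions, and 3 did with all 14 libraries. Over all genes 22.8% were called higher and 21.7% lower, and 15.0% and 11.2% with all 14 libraries. Runs of this size can thus hold both directions at the background rate, and whether their mix differs from it was not tested. The largest run, 18 members on chromosome 17 from 21008941 to 23599755 in GRCm38.p6, held 3 that rose (Zfp51, Zfp52 and Zfp229) and 7 that fell (Zfp760, Zfp995, Zfp942, Zfp943, Zfp947, Zfp944 and Zfp213), with a median of -0.28. With all 14 libraries Zfp51 and Zfp229 were called higher and 6 members lower. Between Zfp760 and Zfp944 lay 6 of the 7 that fell, together with Zfp229, which rose by 0.90 (SE 0.26). Of the 13 members on chromosome 13 from 67069398 to 67827000, Zfp459, Zfp65 and Zfp493 rose and Zfp87 fell by 0.65 (SE 0.22). Of 11 members on chromosome 17 from 32765496 to 33631716 Zfp472 rose and Zfp101 fell. On chromosome 4, from 145510759 to 147849126, 9 members were split into 3 that rose (Zfp981, Zfp985 and Zfp979), 3 that fell (Zfp990, Zfp984 and Zfp933) and 3 not called. This run was singled out after its values were seen, and with all 14 libraries 3 of it rose and 2 fell. Another, also singled out by its values, was a run of 9 members on chromosome 7, from 24081877 to 25227876, where Zfp111, Zfp93, Zfp428, Zfp574 and Zfp526 rose, Zfp94 fell and the median was 0.49. Of these, Zfp574 and Zfp526 were called with all 14 libraries. The Zfp981 and Zfp984 promoters printed above belong to the chromosome 4 run.

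**Figure D5:**
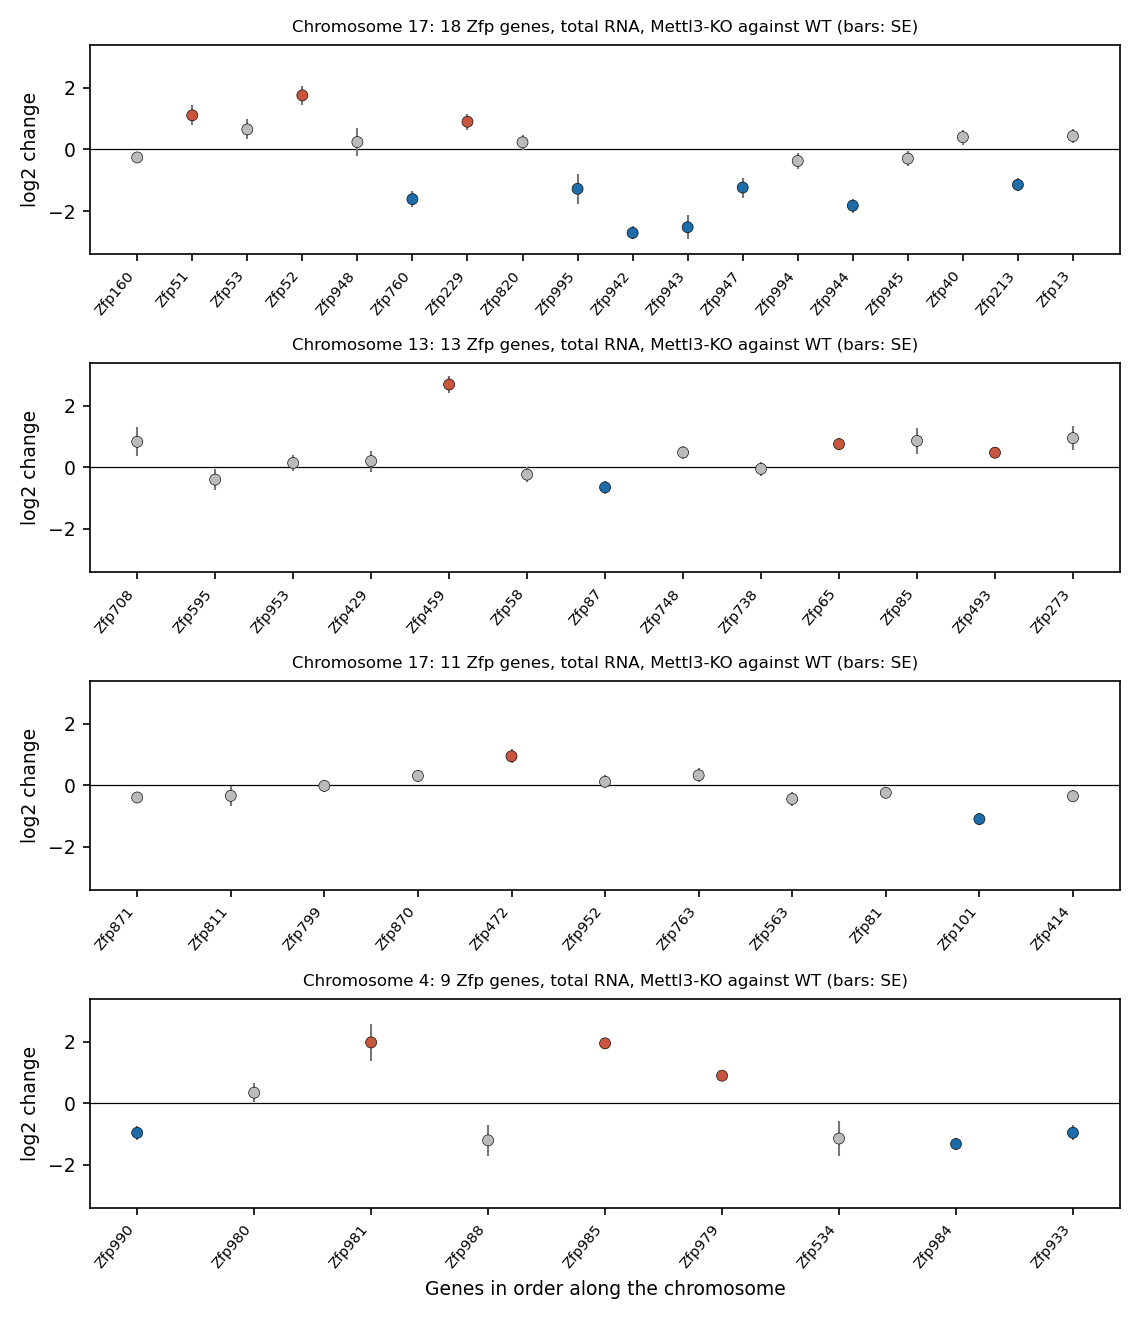
Log2 change of total RNA in Mettl3-KO against WT (y axis, bars are SE) for the Zfp genes of 4 runs, in their order along the chromosome (x axis). Red points rose, blue points fell and grey points were not called; on chromosome 17 the upper run has 3 red and 7 blue points, and on chromosome 4 there are 3 of each.

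Labelled RNA fitted for the time when S4U was removed followed total RNA in the members that were called. The 0 h value here is that of the straight line through all 4 times, which draws on all 12 libraries. In Mettl3-KO the median label left at 1 h was 99.0%, so the line need not meet the values of the 0 h libraries. At 0 h 3 of 281 members were higher in Mettl3-KO (1.07%, background 1.58%) and 16 lower (5.69%, background 9.41%), from edgeR's test of conversion counts scaled by total library counts. The median change was -0.26 for the family and -0.43 for all genes. The 3 that were higher were Zfp951 (4.93, SE 0.98), Zfp459 (2.22, SE 0.65) and Zfp711 (3.64, SE 1.16), and the lower ones included Zfp516 (-2.18, SE 0.48), Zfp57 (-2.28, SE 0.57), Zfp704 (-1.79, SE 0.46), Zfp423 (-1.51, SE 0.42), Zfp961 (-1.73, SE 0.50) and Zfp866 (-2.32, SE 0.70). All 3 higher genes were also called higher in total RNA, and the 16 lower ones were also called lower, with Zfp961 as the exception. This test does not divide by the gene's own total, so a change in total RNA carries into it. The overlap is thus partly built in. Scaled by the gene's own total in the same library, 0 members were called in either direction (background 0% higher and 0.0783% lower), with 7 at an unadjusted p under 0.05. WT had 1 library at 0 h itself, and the counts of 3 and 16 ranged from 1 to 5 and from 5 to 20 when single libraries were left out.

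Total RNA of the family drifted down over the chase in Mettl3-KO by median, while few members were called. The median slope per hour on the log2 scale was -0.00 in WT, with 139 of 283 members above 0. In Mettl3-KO it was -0.035, with 86 of 283 above 0, against -0.0048 and 5315 of 11292 for other genes. The family made up 1.096% and 0.997% of total counts in the Mettl3-KO libraries of 0 h and 0.970% and 1.004% in those of 1 h. It made up 0.974% in the deep library of 3 h and 0.899% and 0.897% in those of 8 h. The deep WT libraries had 0.941% to 1.03%, and only the Mettl3-KO libraries of 8 h lay below that range. Their source field differs as given above, so time and source cannot be told apart there. The Mettl3-KO slope without these 2 libraries is not given here. In WT 0 members had a slope that was called in either direction (background 0% and 0%), and 19 members (6.71%) were at an unadjusted p under 0.05, as were 10.3% of all genes. In Mettl3-KO 3 rose (1.06%, background 2.56%) and 12 fell (4.24%, background 3.03%). The slopes differed between genotypes for 2 members, both lower in Mettl3-KO (0.707%, background 0.467%), and for 0 in the other direction (background 0.311%). Zfp326 was at 76.5, 77.1, 102, 141 and 147 CPM in WT in order of time. In Mettl3-KO it was at 80.3 in both 0 h libraries, 61.5 and 81.0 an hour later, 49.9 at 3 h and 47.5 and 35.8 at 8 h. It thus went up over the chase in WT and down in Mettl3-KO, a slope difference of -0.23 per hour on the log2 scale (SE 0.040, edgeR adjusted p = 0.0177). Zfp318, needed by B cells to make IgD, differed by -0.22 (SE 0.041, edgeR adjusted p = 0.0225), from 46.6 to 87.3 CPM in WT and from 116 and 121 at 0 h to 55.9 and 52.2 at 8 h in Mettl3-KO. With the shallow libraries, or without the 2 Mettl3-KO libraries of 8 h, 0 members differed. DESeq2 called 12, 3 higher (background 2.07%) and 9 lower (2.75%). For these genes the fitted loss of label, scaled by library totals, includes the movement of total RNA.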

How the data were processed

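RNA from paused E14 cells was alkylated with 10 mM iodoacetamide and 100 ng went into 3′ end libraries, per the labels' protocols. The authors deposited whole-number total counts and counts of T-to-C conversions per gene, not normalized. Tools listed in the submitters' processing notes were Subread 1.5.0 with featureCounts, Trim Galore 0.4.0 and edgeR 3.32.1, with mm10 as the build. The aligner is not given in the sources used here. They also leave unstated what 1 conversion count stands for, a read or a base. A table of normalized log2 counts that the authors deposited was not used here. The authors' deposited half-lives and correlations are a score with no stated unit. An entry with no name, under 0.04% of each library, was left out.

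Groups came from titles. Counts were tested with edgeR 4.0.16 (quasi-likelihood, robust, TMM) in R 4.3.3, over genes with 50 or more total counts in 6 or more libraries. Conversion tests also needed 10 or more conversion counts in 3 or more libraries. The 12 libraries above 1000000 counts entered, and all 14, DESeq2 1.42.0, other scaling, filters, times, a replicate block and single libraries left out were tried as alternatives. The fits were tested on simulated data. CPM are TMM-scaled. Named were the 8 members with the smallest p in each direction for total RNA, 6 for each label test, 5 at each end of the WT half-lives, and the role lists. Members, lists and the depth limit were chosen with earlier results of these data known. Protein sequences were not used here.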

Additional observations from a re-analysis of the deposited data

Results flagged for a closer look

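Members whose response over the chase differed between the genotypes, by the test of the difference itself (edgeR, adjusted p under 0.05), were 8. Loss of label was slower in Mettl3-KO by 0.34 log2 units per hour for Zfp106, 0.68 for Zfp111, 0.48 for Zfp574, 0.44 for Zfp580, 1.66 for Zfp959 and 1.94 for Zfp981. Zfp959 had 107 conversion counts at 0 h, 6 at 1 h and 0 in the 3 and 8 h libraries of WT. For total RNA the Mettl3-KO slope minus the WT slope was -0.22 for Zfp318 and -0.23 for Zfp326. None of the 8 was called without the 2 Mettl3-KO libraries of 8 h.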

How the results depend on the processing

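With all 14 libraries, 32 Zfp genes were higher and 27 lower in total RNA and 0 differed in slope over hours. A replicate block left 3 with slower loss and 9 with less label at 0 h. TMM factors taken from the conversion counts themselves, which set the overall fall of label aside by construction, gave 3 slower and 4 faster, 7 higher and 4 lower at 0 h, median slopes of -0.096 in WT and -0.15 in Mettl3-KO, and WT slopes above 0 for Zfp839 (0.053), Zfp655 (0.077), Zfp638 (0.14), Zfp869 (0.18) and Zfp326 (0.21). With each gene's own total as the scale 0 and 0 were called at 0 h, Zfp459 turned to -0.53, and the Mettl3-KO slope was -0.54 with a difference from other genes of -0.076. On 0, 1 and 3 h alone those differences were -0.21 in WT and -0.21 in Mettl3-KO, with a Mettl3-KO slope of -0.45. Without both Mettl3-KO libraries of 8 h, a choice made after seeing the data, 36 members were higher and 36 lower in total RNA, 0 differed in slope over hours and 0 were slower, and the Mettl3-KO slope was -0.44, with a difference from other genes of -0.21. DESeq2 gave 12 members whose total slopes differed and 4 with faster loss. The difference in loss of Zfp981 ran from -0.34 without the WT library of 0 h to 3.54 without the first WT library of 8 h. The cause of these shifts was not tested except where stated.

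With pooled counts the labelled share of the family minus that of other genes was 4.61, 0.379, -5.41 and -2.24 points in WT and 2.93, 2.60, -4.09 and -2.92 in Mettl3-KO at 0, 1, 3 and 8 h. Against other genes in the members' count range it was -0.79 at 8 h in WT.

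Leaving out single libraries gave 47 to 61 members higher and 45 to 65 lower in total RNA, the lowest of both without the WT library of 3 h. It gave 0 to 5 with differing slopes over hours, 0 to 7 slower, 0 to 3 faster, 1 to 5 higher and 5 to 20 lower at 0 h. Median slopes ran from -0.68 to -0.60 in WT and -0.60 to -0.57 in Mettl3-KO, and their differences from other genes from -0.090 to -0.033 and -0.12 to -0.098. Replicate numbers do not pair the libraries: deviations of same-numbered libraries correlated at -0.10 to 0.31 over 6 pairs of groups.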
